A study of Drosophila melanogaster with 15 samples.

Results

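Adult males mutant for Syn1 were compared with control males in RNA-seq of whole flies. Of the 15 libraries of the study, 6 belong to the comparison: 3 of genotype Df(3L)BSC450/deltaSyn1[5-2], called Syn1 here, and 3 of the control genotype CantonS/w[1118]. Each genotype was sampled once per condition. Unstressed flies were kept for 5 days at 25C, temperature-stressed flies for 5 days at 33C, and metabolically stressed flies for 4 days on yeast paste without sugar. All flies were 1 week old, and each library was made from a pool of about 10 males. The other 9 libraries, used where Syn1 is set against other mutants, are Dg[O55]/Dg[O86] (Dg), Df(3R)Exel6184/Df(3R)Exel6184 (Dys) and Df(2L)BSC230/deltaNos15 (Nos) under the same 3 conditions. The title of the unstressed Syn1 library speaks of a control genotype, whereas its genotype field gives the Syn1 alleles.

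Syn1 flies carry a deletion of Syn1 on one copy of chromosome 3 and the larger deficiency Df(3L)BSC450 on the other. Other genes inside the deficiency are therefore present in 1 copy, unless the Syn1 deletion reaches them too. The chromosomes come from other stocks than those of the control. Loss of Syn1, lower dose or loss of its neighbours, and strain background cannot be told apart in this design. With 1 library per genotype and condition, the SD given below is the spread of the Syn1 to control ratio over the 3 conditions and not a replicate error. In whole flies, fewer cells of a type and less RNA per cell cannot be told apart either.

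Syntrophins are cytoplasmic adaptor proteins of the dystrophin glycoprotein complex (DGC). In this complex dystroglycan spans the membrane and binds the extracellular matrix, and dystrophin links it to the actin cytoskeleton. Syntrophin binds dystrophin and brings signalling proteins, among them nitric oxide synthase, to the complex, which is best known for its role in muscle and at synapses.

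Values are FPKM, fragments scaled to transcript length and to the mapped reads of a library. Ratios are log2 of (FPKM + 1) in Syn1 over control within a condition, which understates the change of weakly expressed genes, and are given as mean ± SD over the 3 conditions. A locus was called higher or lower at a mean ratio of at least 1 in size, a 2-fold difference. A moderated test in limma over all 15 libraries, with terms for genotype and stress, was made against that same 2-fold difference. Over all 15 libraries, summed FPKM lay between 242200 and 347100 and relative depth between 0.798 and 1.12; absolute depth is unknown. Tissue markers overlapped between control and Syn1 in some tissues and not in others. The summed level of 3 testis markers read was 782 to 983 in control and 792 to 1200 in Syn1, and that of 5 flight muscle markers 452 to 637 and 502 to 619. The ejaculatory duct and bulb markers Peb and Dup99B summed to 2846 to 5138 in control and 1549 to 2403 in Syn1, without overlap, and the fat body markers Fbp1 and Yp1, both barely expressed, to 0.374 to 0.652 and 0.135 to 0.282. Gut markers ranged from 2013 to 7934 and from 2306 to 5397. Markers of the female germline and eggshell summed to 9.50 FPKM at most in either genotype.

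Syn1 itself was listed at 0 FPKM in all 3 Syn1 libraries. Control flies had 7.60 when unstressed, 6.07 in the heat and 6.09 on yeast paste. The 9 libraries of the other mutants kept it near control, with mean ratios of -0.01 in Dg, -0.10 in Dys and 0.15 in Nos. The remaining genes of the complex were not called. Dg, the dystroglycan gene, had a mean ratio of -0.09 ± 0.07, Dyb, the dystrobrevin gene, 0.16 ± 0.20, and Syn2, the other syntrophin gene, -0.30 ± 0.44. The sarcoglycan genes Scgalpha and Scgdelta stood at 0.00 ± 0.07 and 0.10 ± 0.16. Dys is listed at many loci. Its most abundant one was at 28.7, 22.9 and 30.1 FPKM in control and 26.3, 31.7 and 25.4 in Syn1 (0.03 ± 0.37), while lesser loci of the name were called in both directions. Nos was read well only together with CG6700, at -0.18 ± 0.06.

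Ratios were also mostly below 0 in a stretch around Syn1 on 3L, from CG14566 to mub (listed at 3L:21728178-21926125, build not stated). The limits of Df(3L)BSC450 are not given in the sources used here. The ends of the stretch were chosen after values were seen, so its median is no test of gene dose. Among its 10 expressed loci other than Syn1, the median ratio was -0.65 and 9 were below 0. Of these 10, 2 were called lower and 1, a locus of mub, higher (1.13). The joint locus of CG42689 and CG7370, which overlaps Syn1, was at 14.6, 5.92 and 11.0 FPKM in control and 1.42, 1.08 and 4.08 in Syn1. In the remainder of the 500 kb on either side of Syn1, 57 expressed loci had a median of 0.01. All 96 loci within 500 kb, of which 6 were called, are left out of the counts that follow unless stated.

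Over the whole table of 10350 named loci, 3.93% were called in Syn1, 1.78% higher and 2.15% lower. Outside the window these were 401 loci, 183 higher and 218 lower. The difference reached 2-fold in each of the 3 conditions at 168 of them (1.66% of all loci, window included). Over all 10350 loci, window included, the limma test gave 192 at an unadjusted P under 0.1 (1.86%). At a Benjamini-Hochberg adjusted P under 0.1 it gave 61 (0.589%), with 19 higher (0.184%) and 42 lower (0.406%). Of these 61, 60 lie outside the window. The calls were not spread evenly over the genome. Chromosome 3, which carries both Syn1 lesions, holds 41.0% of the loci outside the window, 47.6% of those called by fold and 70.0% of those past the adjusted limma threshold. On arm 3L, 5.11% of loci were called by fold, against 2.89% on X. No test was made of these shares, and background differences between the chromosomes of the stocks cannot be told apart from effects of Syn1. Many calls also concern one listed locus of a gene with several: 174 of the 401 loci carry a name found on more than 1 locus, and 5 names (CG15544, CG42788, Dscam4, Dys and Pxn) had loci called in both directions.

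Genes named for the antenna were among those lowest in Syn1. Odorant-binding proteins are small secreted proteins that carry odorants and pheromones through the fluid around sensory dendrites. Of 35 such genes read, 5 were lower and 2 higher, against 2.08% and 1.58% of all genes read at 1 locus each (3.66% in either direction). Pbprp3 (Obp83a) was in control at 90.5 FPKM in unstressed, 26.1 in temperature-stressed and 89.1 in metabolically stressed flies, and at 0.293, 2.66 and 15.7 in Syn1, the order of conditions kept below. Os-E (Obp83b), its neighbour on 3R, was at 41.3, 18.0 and 43.9 in control and at 0.130, 2.85 and 9.56 in Syn1. Every Syn1 value of both genes lay below every control value. The mean ratios were -3.82 ± 2.02 and -3.21 ± 1.75. The limma test gave unadjusted p of 0.000885 and 0.00119, and adjusted p of 0.141 and 0.179, short of the adjusted threshold. Pbprp5 (Obp28a) was at 23.2, 7.50 and 28.1 FPKM in control and 0.764, 3.02 and 5.94 in Syn1 (-2.31 ± 1.36). Obp59a followed with 5.43, 3.31 and 4.95 in control and 0.0487, 0.290 and 1.33 in Syn1 (-1.90 ± 0.65). The groups did not overlap at either gene. In all 4 genes the unstressed Syn1 library held the lowest value and the metabolic Syn1 library the highest of the 3.

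Other genes named for the antenna were low in the same libraries. The a5 gene, which encodes an antennal protein, was at 19.8, 14.2 and 20.5 FPKM in control and 0, 0.757 and 4.65 in Syn1, with a mean ratio of -3.14 ± 1.22 (limma, adjusted p = 0.0795). The following were chosen after their values were seen. The antennal dehydrogenase gene antdh was at 27.8, 8.29 and 29.8 in control and 2.90, 3.38 and 8.09 in Syn1, and Os-C, an olfactory-specific gene, at 44.8, 19.0 and 51.6 and at 10.1, 8.84 and 19.8. A joint locus of CG2663 and Orco, the coreceptor of odorant receptors, had a mean ratio of -1.92 ± 0.69. A locus of CG42321 (ATP8A, a phospholipid flippase) had -3.17 ± 0.74, while the most abundant locus of that gene had -0.28 ± 0.23. Pbprp1, Pbprp2 and Pbprp4 were nearer control, at -0.90 ± 0.54, -0.78 ± 0.53 and -0.51 ± 0.73. The median over the 35 odorant-binding genes was -0.097, against -0.016 over all genes read at 1 locus each, and Obp56i, at 7.88, 5.69 and 8.67 in control, was higher in Syn1 at 20.1, 10.6 and 21.1 (1.08 ± 0.24). Of 107 chemoreceptor genes read, most of them barely above 0, none was called. The same 4 genes were also below control in the other mutants, which share the control libraries. Pbprp3 had mean ratios of -2.10 in Dg, -1.84 in Dys and -0.94 in Nos. The contrast of Syn1 with the mean of these 3, whose estimate does not use control, was -2.20 on the log2 scale (limma, adjusted p = 1.0).

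**Figure D1:**
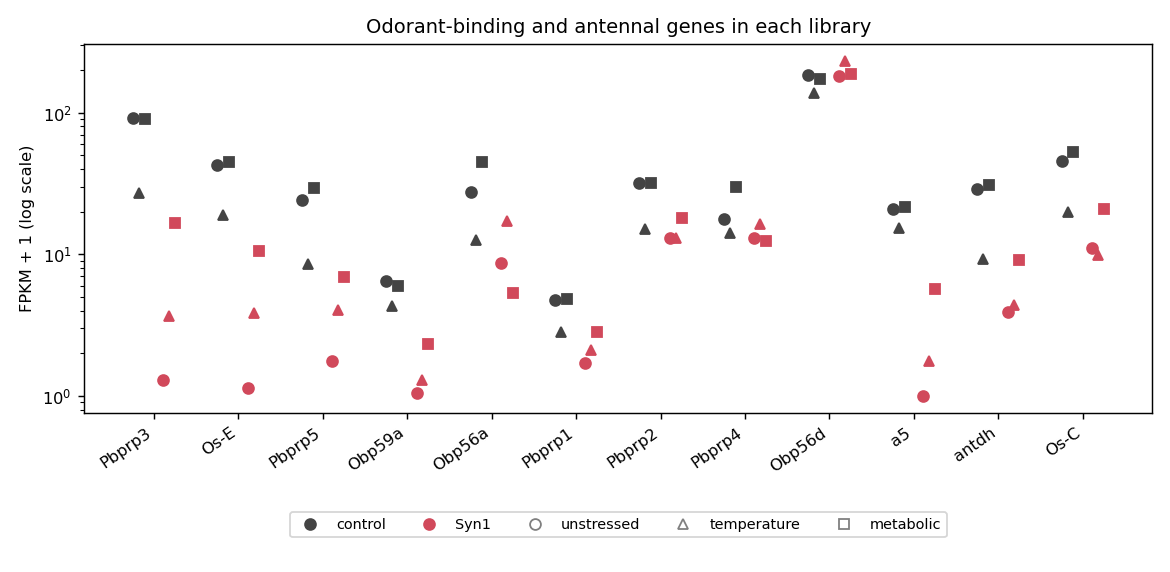
FPKM + 1 on a log scale for 12 odorant-binding and antennal genes (x axis) in the 3 control (grey) and 3 Syn1 (red) libraries; circles are unstressed, triangles temperature-stressed and squares metabolically stressed flies. Pbprp3, Os-E, Pbprp5, Obp59a, a5 and antdh show Syn1 points below all control points, whereas Obp56d shows both genotypes at like levels.

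Seminal fluid genes of the accessory gland tended to lower levels in Syn1, least so in the heat. These secreted proteins pass to the female at mating. Of 24 read, 7 were called lower and none higher (2.08% and 1.58% over all genes), and 23 had a mean ratio below 0. The list median was -0.60, made up of -0.80 in the unstressed, -0.14 in the temperature and -0.88 in the metabolic pair. Sfp60F, the most abundant of the 4 named, was at 7833, 3785 and 10190 FPKM in control and 2628, 1648 and 2256 in Syn1 (-1.65 ± 0.49), so the groups did not overlap. Sfp24Ba was at 306, 108 and 410 in control and 95.9, 47.8 and 75.6 in Syn1, again without overlap (-1.75 ± 0.64). CG15841 (Acp33A, read with Mst33A) had a ratio of -1.57 ± 0.74, and Acp24A4 of -1.36 ± 1.15 with near-equal levels at 33C of 75.8 and 70.5. Sfp24Ba passed the limma test without adjustment at 0.0432, and no member passed with it (adjusted p = 1.0 for each of the 4 in limma). Acp26Aa, which encodes ovulin, was at -0.76 ± 0.55 and Acp70A, the sex peptide gene, at -0.50 ± 0.44, and neither was called. The Peb gene of the ejaculatory bulb was called lower, at 5067, 2748 and 4287 FPKM in control against 2208, 1758 and 1359 in Syn1, and the joint locus of Dup99B, an ejaculatory duct peptide gene, and Obp99b was called higher at 1.19 ± 1.35. The list medians against the same control libraries were -0.90 in Dg, -0.88 in Dys and -1.60 in Nos. The accessory gland markers Acp26Aa and Acp70A summed to 393 to 1930 FPKM in control and 355 to 930 in Syn1, and their part in the result was not tested. No member of a list of 21 testis and sperm genes was called, and their median was -0.03.

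Most members of the phototransduction and eye pigment list, called phototransduction in the text and figures, had mean ratios above 0, with 2 called. Of 22 names read at 21 loci, 2 were called higher and none lower (1.58% and 2.08% over all genes), and 16 were above control in all 3 conditions. The median was 0.54, against -0.016 over all genes. ninaC, a kinase joined to a myosin in photoreceptors, was at 17.6, 29.1 and 10.4 FPKM in control and 45.5, 51.5 and 26.1 in Syn1 (1.13 ± 0.28). Rh5, a blue-sensitive opsin gene, was at 5.15, 6.56 and 1.37 in control and 13.3, 14.6 and 5.05 in Syn1 (1.20 ± 0.15). Within each condition Syn1 was higher, although the ranges of both genes overlapped across conditions. The light-gated channel gene trp had 0.98 ± 0.22, just under the limit. In limma no member passed, with unadjusted p of 0.247 for Rh5 and 0.326 for ninaC. Medians of the same list were 0.57 in Dg, 0.08 in Dys and 1.03 in Nos. The eye markers ninaC and trp, members of the list, summed to 26.3 to 79.9 FPKM in control and 56.1 to 143 in Syn1. The control label names the white allele w[1118], and the study lists w[1118] in the stock of Df(3L)BSC450 as well. Which eye colour alleles the sampled males carried is not given, and their part was not tested.

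**Figure D2:**
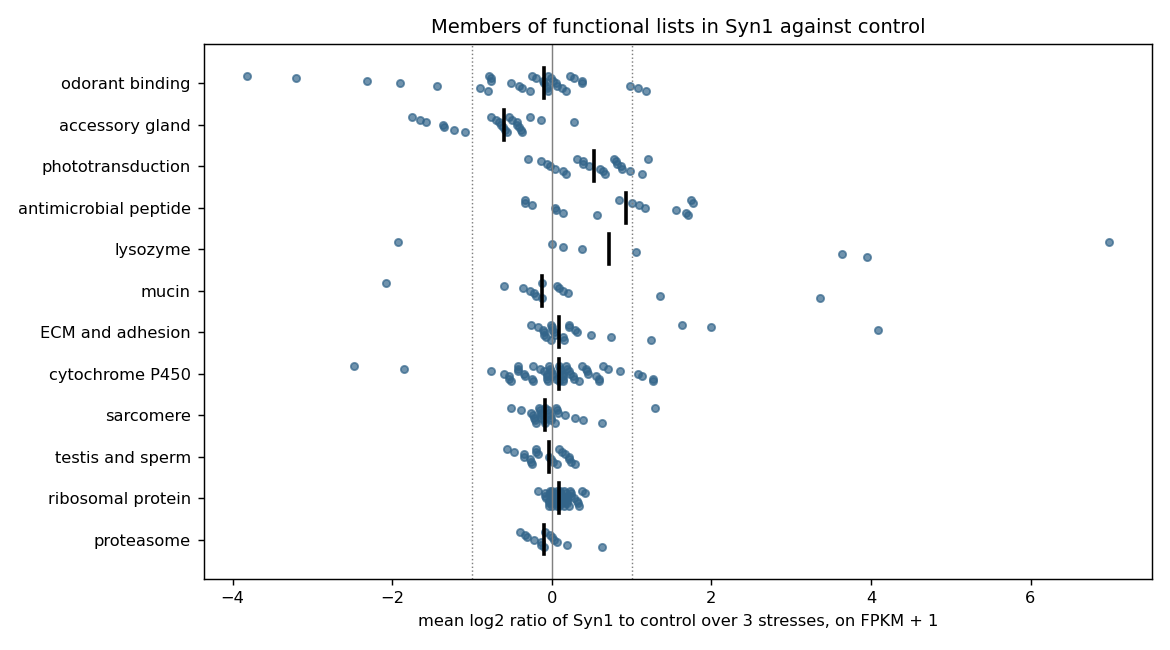
Mean log2 ratio of Syn1 to control over 3 conditions (x axis, on FPKM + 1) for each gene of 12 functional lists (rows); each point is 1 gene, black bars are list medians and dotted lines mark a 2-fold difference. The accessory gland list lies mostly left of 0 (median -0.60), phototransduction and antimicrobial peptides mostly right (0.54 and 0.93), and ribosomal protein, proteasome and testis genes stay within the dotted lines.

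About as many antimicrobial peptide genes were called higher in Syn1 as were not, and the ratios were highest in the heat. Of 16 names read at 15 loci, 8 were called higher and none lower, where 1.58% and 2.08% of all genes were. The median ratio was 0.93, but it was 2.05 in the temperature pair, 0.47 in the unstressed pair and -0.22 in the metabolic pair. Without the temperature libraries the median of the list was 0.12. DptB, which encodes a diptericin, was at 0.321, 0.477 and 0.546 FPKM in control and 1.91, 20.8 and 0.872 in Syn1 (1.77 ± 1.88). CecC, a cecropin gene, was at 0.0510, 0.106 and 0 in control and 0.793, 10.6 and 0.858 in Syn1 (1.68 ± 1.48). Both were highest in the temperature-stressed Syn1 library, and their control values were all below their Syn1 values. AttC, an attacin gene, was at 0.759, 1.05 and 0.881 in control and 3.12, 8.07 and 5.26 in Syn1 (1.70 ± 0.46), a difference present in all conditions. IM2 (BomS2), a bomanin peptide gene controlled by the Toll pathway, was at 14.3, 7.22 and 31.8 in control and 65.9, 36.2 and 61.6 in Syn1 (1.75 ± 0.70), with no overlap between groups. The limma test gave unadjusted p of 0.0834 for AttC and 0.0615 for IM2, and after adjustment 1.0 for both. The other 4 called, chosen after their values were seen, were edin (0, then 21.4 FPKM in Syn1 at 33C), Dro, IM23 and IM14. None of 19 genes of Toll and Imd signalling, the pathways that switch these peptides on, was called, and their median was 0.04. Medians of the peptide list in the other mutants were 0.03 in Dg, 0.39 in Dys and 1.34 in Nos.

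**Figure D3:**
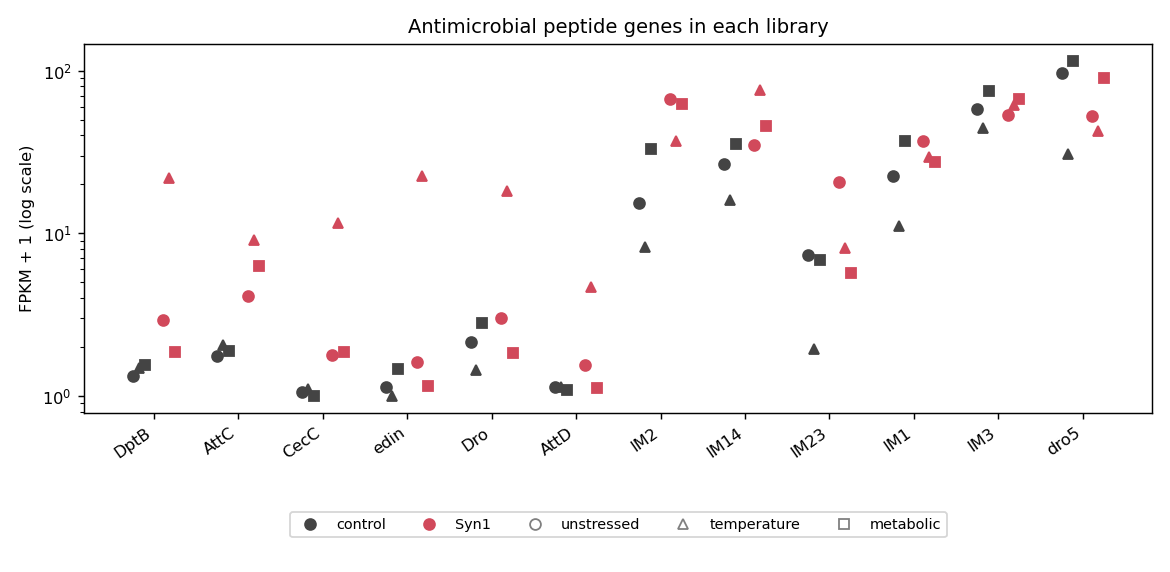
FPKM + 1 on a log scale for 12 antimicrobial peptide genes (x axis) in the 3 control (grey) and 3 Syn1 (red) libraries, with circles, triangles and squares for unstressed, temperature and metabolic stress. The Syn1 triangle stands highest for DptB, AttC, CecC, edin, Dro and AttD, for example at 20.8 FPKM for DptB, while all 3 Syn1 points of IM2 lie above its control points.

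Lysozyme genes held the highest ratio of all named loci. Drosophila lysozymes are made mainly in the gut, where they digest bacteria. LysC was at 0.110, 0.190 and 0.339 FPKM in control and 204, 183 and 94.6 in Syn1 (6.99 ± 0.73, limma, adjusted p = 4.33e-05). LysB was at 0.722, 0.698 and 3.08 in control and 45.9, 30.7 and 28.6 in Syn1 (3.95 ± 0.98, limma, adjusted p = 0.00764). LysD was at 4.50, 4.10 and 10.1 in control and 103, 111 and 50.7 in Syn1 (3.64 ± 1.23, limma, adjusted p = 0.0898). Against these 3 neighbours on 3L, LysE was lower, at 65.4, 24.3 and 66.2 in control and 12.9, 8.17 and 14.9 in Syn1 (-1.93 ± 0.42, limma, adjusted p = 0.846). These genes are near-identical copies, and how reads shared among them were divided is not given in the sources used here, so the value of each is uncertain. The 4 genes together summed to 70.7, 29.3 and 79.7 FPKM in control and 366, 333 and 189 in Syn1 (2.35 ± 1.11), higher in all Syn1 libraries than in any control library. Of 8 lysozyme genes read, LysP was the fourth called higher, at 1.06 ± 0.31 (1.58% of all genes were called higher). In the other mutants LysC had ratios of 5.46 in Dg, 7.11 in Dys and -0.01 in Nos. Among further genes of the gut and of immunity, the peptidoglycan amidase gene PGRP-SC2 was listed at 0 in the unstressed and temperature-stressed Syn1 libraries and at 38.7 FPKM in the metabolic one, against 21.3, 0 and 191 in control. TotZ, a Turandot stress peptide gene, was lower at 15.3, 28.5 and 12.8 in control and 2.87, 5.61 and 3.19 in Syn1 (-1.99 ± 0.23, limma, adjusted p = 0.0501), whereas TotC was at 15.3, 4.95 and 9.37 in control and 12.7, 36.7 and 54.9 in Syn1 (1.61 ± 1.62), near control in the unstressed pair. The chymotrypsin-like gene Jon66Ci was lower, at 7.37, 7.21 and 5.76 FPKM in control and 0.198, 1.84 and 1.19 in Syn1 (limma, adjusted p = 0.0867), with the other 6 Jonah genes not called.

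The list of extracellular matrix and adhesion genes, the DGC's binding partners outside the cell among them, had a median ratio of 0.09 over 24 members. Read at 1 locus each, 4 were called higher and none lower (1.58% and 2.08% over all genes). At mp, Pxn and vkg the call depended on the locus read. mp (Mp, multiplexin, a collagen of the type XV and XVIII family) was at 0.293, 0 and 0 FPKM in control and 18.8, 11.7 and 24.1 in Syn1 at its most abundant locus (4.08 ± 0.51, limma, adjusted p = 4.11e-05). The other mp locus was at 9.38, 8.79 and 8.46 in control and 13.4, 12.1 and 11.7 in Syn1 (0.44 ± 0.03). The difference thus concerned one listed locus of the gene, and it was present in Dys (4.59) and Nos (3.03) and small in Dg (0.40). Pxn, which encodes peroxidasin, a basement membrane peroxidase, gave opposite readings at a pair of loci: 5.14, 0.523 and 4.92 in control against 17.5, 10.0 and 16.4 in Syn1 (2.00 ± 0.74) at one, and 11.9, 25.4 and 10.8 against 2.15, 4.66 and 1.95 (-2.09 ± 0.12) at the other. A minor locus of the collagen IV gene vkg was higher (1.64 ± 0.30, limma, adjusted p = 0.0297), while its main locus, shared with Rtnl1, was at -0.08 ± 0.27. Mmp2, a matrix metalloproteinase gene, was at 1.19, 0.268 and 1.34 in control and 5.69, 0.998 and 5.52 in Syn1 (1.25 ± 0.52). The nidogen gene Ndg, at 0.74 ± 0.09, was not called. Of 12 genes of heparan sulphate synthesis and glycosyl transfer, ttv and dally were called (3.66% of all genes were called in either direction). One locus of ttv, the EXT1-related enzyme that polymerises heparan sulphate, was at 8.14, 8.58 and 9.43 in control and 0, 0.0505 and 0 in Syn1 (-3.25 ± 0.11, limma, adjusted p = 4.33e-05), while the next loci of the gene had ratios of 0.03 and 0.28. It was near 0 in Dys and Nos as well (-3.28 and -3.21) and not in Dg (1.26). The glypican gene dally, whose product carries heparan sulphate, was at 2.62, 2.99 and 2.45 in control and 7.45, 5.47 and 8.21 in Syn1 (1.11 ± 0.37).

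In the muscle and neural lists the share of genes called was near the 3.66% of all genes. Of 29 sarcomere genes, 1 was called: the joint locus of TpnC4, a troponin C of flight muscle, and CG30440, at 37.4, 10.3 and 30.5 FPKM in control and 83.6, 83.3 and 27.1 in Syn1 (1.29 ± 1.54). Of 35 genes of synapses, channels and transmitters, 1 was called. This was DAT, the dopamine transporter gene, at 8.0, 9.27 and 7.39 in control and 1.60, 0.567 and 1.02 in Syn1 (-2.19 ± 0.47, limma, adjusted p = 0.00982), with all Syn1 values below all control values. DAT stood at -1.89 in Dys, -0.83 in Dg and -0.44 in Nos. The name is on 2 loci, of which the more abundant is given. Its listed interval is also that of Syn2 (-0.30 ± 0.44). Of 17 neuropeptide genes, Nplp3 was called lower (-1.43 ± 0.62), at under 0.1 FPKM in each Syn1 library against 3.59, 0.953 and 1.85 in control.

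Among enzymes of detoxification and of sugar metabolism single genes stood far from control. Of 56 cytochrome P450 genes, 4 names were higher and 2 lower (3.66% of all genes were called in either direction, which also bears on the counts that follow), around a median of 0.09. Cyp6a20, linked to male aggression, was at 19.0, 9.92 and 19.3 FPKM in control and 3.63, 2.25 and 0.703 in Syn1 (-2.48 ± 0.97). Cyp4d8 was at 7.99, 5.42 and 15.1 in control and 1.29, 2.07 and 1.82 in Syn1 (-1.85 ± 0.73), and the joint locus of Cyp12d1-d and Cyp12d1-p was higher at 1.26 ± 0.79. Neither lower gene overlapped between genotypes. Of 27 UDP-glycosyl transferase genes Ugt86Dd alone was called, at 31.1, 22.6 and 121 in control and 6.87, 8.66 and 16.7 in Syn1, and it was lower in the other mutants also (-1.90, -2.66 and -1.86). UGP, chosen after its values were seen, encodes the enzyme that makes UDP-glucose, the donor for these transferases and for glycogen. It was at 107, 79.2 and 290 FPKM in control and 26.1, 20.8 and 35.4 in Syn1 (-2.29 ± 0.62, limma p of 0.00412 before adjustment, adjusted p = 0.459). A minor locus of the trehalase gene Treh was lower too (-2.49 ± 0.64, limma, adjusted p = 0.00881), while the main Treh locus was at -0.21 ± 0.57. Of 70 cuticle protein genes, 4 were higher and 1 lower, against 1.58% and 2.08% of all genes, led by Cpr72Eb at 6.92, 19.2 and 3.59 in control and 12.1, 61.9 and 21.8 in Syn1. Cpr100A and TwdlT were also higher (1.36 and 1.30), and Cpr50Ca was lower (-1.18). Of 14 mucin genes, Muc4B went from at most 0.134 FPKM in control to 9.60, 11.0 and 9.54 in Syn1 (3.37 ± 0.15, limma, adjusted p = 0.112). Mur2B fell from 8.22, 9.06 and 9.54 to 1.74, 1.35 and 1.04 (-2.07 ± 0.31, limma, adjusted p = 0.0414). Mur18B, a mucin-related gene, was higher at 1.36 ± 0.64. In Dg, Dys and Nos the ratios were 4.05, 4.12 and 0.91 for Muc4B and -0.26, -2.43 and -0.33 for Mur2B. For Mur18B they were 1.42, 0.62 and 1.42. Of 16 serpin genes, which encode protease inhibitors, Spn28Db was lower at -1.22. Tsf1, the transferrin gene, was higher at 42.9, 44 and 91.3 in control and 113, 273 and 119 in Syn1 (1.46 ± 1.11), and so was the storage protein gene Lsp1beta (1.42 ± 1.10).

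The response to the diet without sugar differed in Syn1 at genes of carbohydrate digestion. Lysosomal-type alpha-mannosidases, which trim mannose from glycans, are encoded by a cluster on 2L. CG9468 (LManVI) went from 21.1 FPKM unstressed to 273 on yeast paste in control, from 2.15 to 344 in Dg, from 1.90 to 227 in Dys and from 31.7 to 246 in Nos. In Syn1 it was at 38.2 unstressed and 8.82 on yeast paste. CG9466 (LManV) went from 9.95 to 122 in control and from 28.0 to 6.59 in Syn1, and the joint locus of CG9463 and CG9465 from 2.71 to 85.7 and from 7.66 to 2.91. On the log2 scale, the metabolic response of CG9468 was 3.63 in control, 6.78 in Dg, 6.29 in Dys, 2.92 in Nos and -2.0 in Syn1. At all 3 loci the 4 other genotypes had more on yeast paste than unstressed, and Syn1 had less. At 33C control lay below Syn1, with CG9468 at 1.89 in control and 57.0 in Syn1, while the temperature response was higher in Dys (1.61) than in Syn1 (0.56). The mean ratio over the conditions was therefore near 0 (0.12 ± 4.61), and these genes are not among the calls. Starch and sugar enzymes had a like but lesser difference. Amy-p, read with its neighbours, encodes alpha-amylase and went from 217 to 1390 in control and from 132 to 493 in Syn1. The maltase genes Mal-A3 and Mal-A4 went from 3.98 to 38.4 and from 6.99 to 85.3 in control, and from 7.57 to 4.61 and from 9.64 to 18.6 in Syn1. Nos also had small responses at these loci, so a small response is not particular to Syn1. A response below 0 at Mal-A3 was seen in Syn1 alone. For Mal-A3 and Mal-A4 the response was 0.44 and 0.90 in Nos, -0.61 and 0.89 in Syn1 and 2.98 and 3.43 in control. For Amy-p, Mal-A1 and Mal-A5 it was lower in Nos (0.67, 0.51 and 0.92) than in Syn1 (1.90, 1.05 and 1.49). Amy-p and Amy-d are near-identical copies, so their separate values are uncertain.

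**Figure D4:**
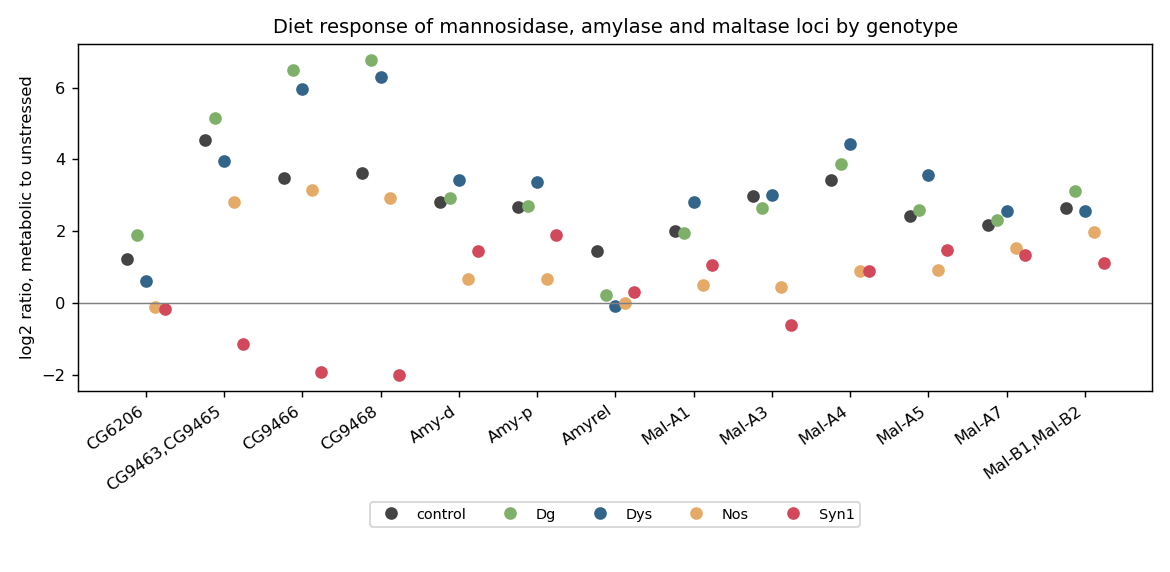
Log2 ratio of metabolic stress to unstressed flies (y axis, on FPKM + 1) for alpha-mannosidase, amylase and maltase loci (x axis), with 1 point per genotype and 1 library on each side of each ratio. At CG9463,CG9465, CG9466 and CG9468 control, Dg, Dys and Nos lie at 2.82 or above and Syn1 lies between -2.0 and -1.15.

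Metabolic responses were also compared across all 10350 loci, window included. In Syn1 the response was at least 2-fold below that of each of the 4 other genotypes at 44 loci (0.425%). It was at least 2-fold above at 17 (0.164%). This comparison was added after the values had been seen, and with 1 library on each side it has no test. Below the others were, besides the mannosidases, CG15533, an acid sphingomyelinase gene, at 0.585 and 26.7 FPKM in control and 2.22 and 0.734 in Syn1, and ade3, of purine synthesis, at 3.37 and 29.4 in control and 15.2 and 30.7 in Syn1. The branched-chain amino acid aminotransferase gene CG1673 (Bcat) went from 24.7 to 98.0 in control and from 26.0 to 38.8 in Syn1. The nimrod genes nimB1 and nimB4, of hemocyte and humoral proteins, went in Syn1 from 43.1 to 18.7 and from 9.54 to 4.52, while the other 4 genotypes had responses above 0. Above the others were Pbprp3, Os-E, Pbprp5 and a5, whose Syn1 level is lowest unstressed, and TotC, PGRP-SC2 and jhamt, the juvenile hormone acid methyltransferase gene, at 4.04 and 6.64 in control and 1.74 and 27.1 in Syn1. For temperature stress the counts were 18 loci below (0.174%) and 66 above (0.638%), the latter with CecC, edin, TotC and the metallothionein gene MtnB among the highest. The main CG6966 locus, in contrast, was low in the heat in both genotypes, at 387, 7.21 and 378 FPKM in control and 223, 6.27 and 328 in Syn1. At 67 loci outside the window the Syn1 to control ratio was at least 2-fold up in one condition and at least 2-fold down in another.

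Several of the strongest differences fall in no list other than that of long noncoding RNAs. They were taken in order of size among loci changed in every condition and past limma's adjusted threshold. Lower in Syn1 were the serine protease gene CG33462 (10.7, 4.50 and 16.0 FPKM in control, at most 0.0652 in Syn1), Srg3 (CG33926; -2.88 ± 0.83), CG3528 (-2.88 ± 0.97), GILT3 (CG13822), named for a lysosomal thiol reductase (26.6, 14.8 and 32.1 against 2.94, 1.34 and 4.66), CG43120 (-2.69 ± 0.23) and mthl8, a receptor gene of the methuselah family. The noncoding RNA CR43495 was at 10.3, 9.98 and 8.18 in control and at most 0.143 in Syn1 (-3.27 ± 0.23, limma, adjusted p = 4.08e-05), and CR43846 and bxd, a noncoding RNA of the bithorax complex, were also near 0. Of 265 long noncoding RNA names read, 13 at 12 loci were higher and 17 lower (1.58% and 2.08% over all genes), 6 of them past the adjusted threshold. Single loci of CG13624 (REPTOR, a transcription factor under TORC1), Gef64C and CG7368 were lower by 3.14, 2.83 and 2.88 on the log2 scale, but the most abundant loci of the first pair stood at 0.08 and -0.08. Higher in Syn1 were CG42720, CG8960, the protease-like genes CG4998 and CG17475, the noncoding RNA CR43839, and single loci of CG6966 and klar, of which klar has a main locus at -0.07 ± 0.06. CG4998 was at 0.243, 0.302 and 0.441 in control and 10.4, 4.12 and 12.7 in Syn1 (2.81 ± 0.72). CG34356 (bma) was listed at 0 in every control library and at 3.36, 4.61 and 4.74 in Syn1. CG42788 had 1 locus lower, from 9.28, 5.22 and 32.1 FPKM to at most 0.0701 (-3.65 ± 1.18), and a pair of loci higher (3.40 ± 0.81 and 2.38 ± 0.54). Some of these loci were changed alike in every mutant. In Dg, Dys and Nos the ratios were -3.35, -3.35 and -3.33 at CG33462, and -3.05, -3.20 and -3.35 at CR43495. They were -2.37, -2.22 and -2.56 at bxd, and -3.04, -2.57 and -2.48 at the Gef64C locus. Others were not, such as mthl8 (0.07, 0.04 and -0.22) and CG43120 (0.36, -1.12 and 0.56).

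Syn1 was then set against the mean of Dg, Dys and Nos, a contrast whose estimate does not use the control libraries. These libraries are still part of the model, so they enter the spread behind its P-values. At an unadjusted limma P under 0.1, 1.10% of loci differed, window included. At an adjusted P under 0.1 these were 28 loci (0.271%), 13 higher (0.126%) and 15 lower (0.145%) in Syn1. At some of these Syn1 was not called against control, while other mutants stood apart from control. The mitochondrial gene mt:CoI was at 1.17, 2.02 and 1.74 FPKM in Syn1 and near that in control. Its ratios to control were -0.02 in Dg, 8.07 in Dys and 8.54 in Nos. Which of these levels is the unusual one was not tested. The joint locus of CG42826 and dpr6 had ratios of -0.14 ± 0.06 in Syn1, 2.60 in Dg, 4.94 in Dys and 3.05 in Nos. CG17177 was lower in Dys and Nos (-2.32 and -2.49) and at 0.94 ± 0.38 in Syn1. At other loci Syn1 itself lay away from control. CG6788 on X was at 0.330, 0.384 and 0.230 in control and 16.5, 13.0 and 4.84 in Syn1, and its ratio was 0.18, -0.02 and -0.05 in Dg, Dys and Nos (contrast 3.06, limma, adjusted p = 0.00246). mthl8 was at 6.63, 9.95 and 7.60 in control and 0.00595, 0 and 1.33 in Syn1 and within 0.22 of control in the other mutants (contrast -2.71, limma, adjusted p = 0.00399). CG7368 (contrast -2.78) was low in Syn1, with ratios to control of 0.00 in Dg, 1.01 in Dys and -1.34 in Nos. CG43120 (contrast -2.63) had 0.36, -1.12 and 0.56 in those mutants, and a lesser locus of CG7046 (tHMG2, an HMG-box protein gene, contrast -3.07) had 0.80, 0.87 and -0.17. HGTX, an Nkx6-type homeobox gene, and CG4221 (Fbxl7), an F-box gene, chosen after their values were seen, had ratios to control of -2.41 ± 0.39 and -2.20 ± 0.20 in Syn1. In Nos these were -0.54 and -1.72, so CG4221 was low in Nos as well. Of the 26 loci of this contrast outside the window, 69.2% lie on chromosome 3. None of the antimicrobial peptide, accessory gland, phototransduction or odorant-binding genes named above passed the adjusted threshold of this contrast, whereas LysC was at its edge (contrast 2.80, limma, adjusted p = 0.0999).

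**Figure D5:**
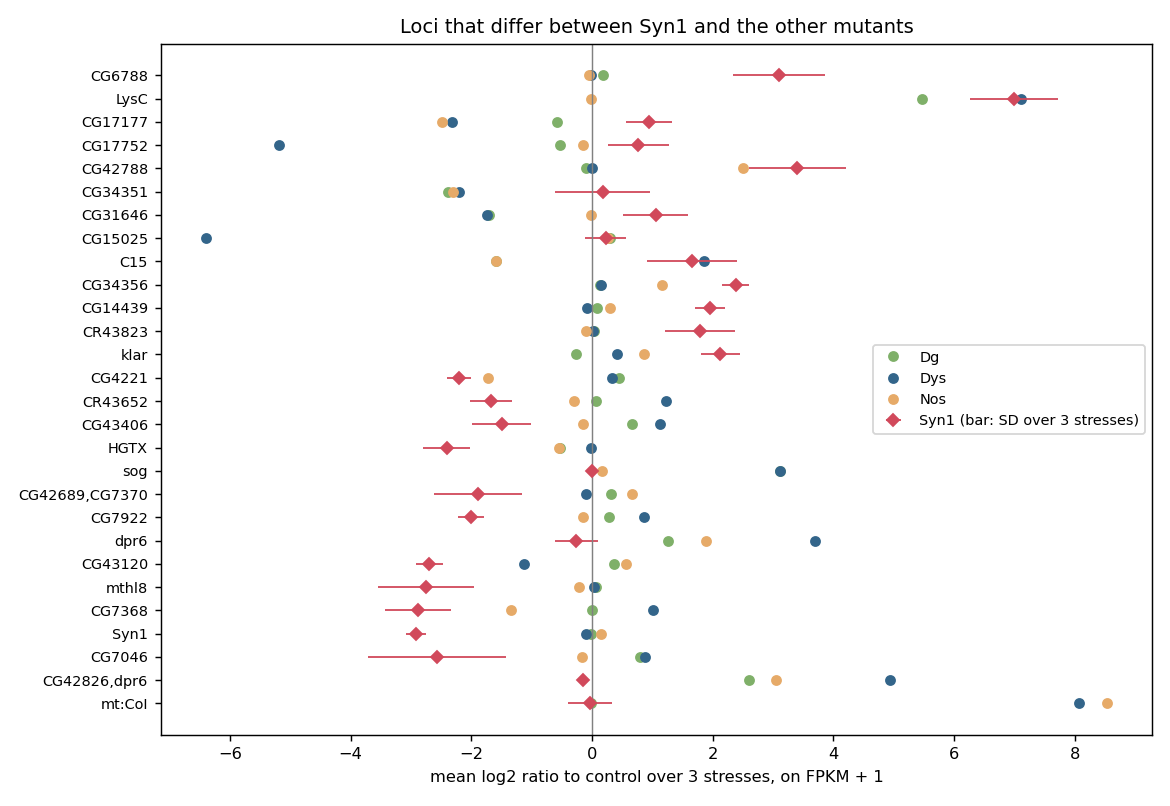
Mean log2 ratio to control over 3 conditions (x axis, on FPKM + 1) at the 28 loci past the adjusted threshold for Syn1 against the other mutants (rows, ordered by that contrast); red diamonds are Syn1 with SD over the 3 conditions, and green, blue and orange circles are Dg, Dys and Nos. At CG6788 Syn1 stands at 3.10 with the other mutants near 0, while at mt:CoI Syn1 is near 0 and Dys and Nos stand at 8.07 and 8.54.

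Of 46 functional lists, 22 with 392 gene names in all had no member called, with medians from -0.21 to 0.21. They include 51 cytosolic ribosomal proteins (median 0.09), 14 proteasome subunits (-0.09), 10 heat shock proteins and cognates (0.00), 12 Hippo pathway genes (0.01), 10 genes of nitric oxide and cyclic GMP (0.08), 16 vacuolar proton pump subunits (-0.08) and 19 glutathione transferases (-0.03). The respiratory chain list of 47 names holds mt:CoI of the mitochondrial genome beside nuclear genes. Of these 47, 1 was called (3.66% of all genes were): CG15434 (ND-B8), a subunit of complex I. It was at 3.48, 2.64 and 3.37 FPKM in control and 0.788, 1.02 and 1.14 in Syn1 (-1.07 ± 0.24).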

How the data were processed

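FPKM values, 1 table per library, were deposited by the authors together with the position of every locus and a status of its estimate. The submitters' processing notes name STAR, DESeq2 and BDGP6, and the tool and build behind the FPKM tables are not given in the sources used here. Absolute depth is unknown, so no counting intervals are given. Of 14124 loci, 10350 with a gene name and status OK in all 15 tables were used. Positions are printed as listed.

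Ratios used log2(FPKM + 1), and loci within 500 kb of Syn1 were counted apart. All 15 libraries entered 1 limma model (version 3.58.1, R 4.3.3) of genotype and stress with 8 residual degrees of freedom, tested by treat against a 2-fold change at P under 0.1. P-values thus rest on how far differences between genotypes vary over the conditions, pooled over all genotypes, and not on replicates. Shifts between conditions that all genotypes share are taken out by the stress term. An exact sign-flip test over 3 pairs cannot go below p = 0.25 and was not used. Python 3.11.15, numpy 2.4.6, pandas 2.3.3 and matplotlib 3.10.9 were used, and the steps were tested on simulated data. A gene on several loci was read at the one of its own with the highest mean FPKM. Of 8875 names, 8816 were matched to RefSeq for current symbols. Comparisons, members and lists were chosen with earlier results of these data known.

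The genes named are the 15 highest and 15 lowest single-name loci changed at least 2-fold in each condition and past the adjusted threshold, up to 4 called members of each list, the DGC genes, and the 8 loci with the largest contrast of Syn1 with the other mutants. Any other gene named was chosen after its values were seen. Alternatives tried were median-ratio scaling, a pseudocount of 0.1, loci of mean FPKM of at least 1, 1 locus per name, other windows, other limma settings, and each condition or other mutant left out.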

Additional observations from a re-analysis of the deposited data

Results flagged for a closer look

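Among the loci whose response to the metabolic stress is described above, 9 had responses of opposite sign in Syn1 and control, and so had other loci not named. On the log2 scale the Syn1 response minus the control response was -5.63 for CG9468, -5.42 for CG9466, -5.70 for the joint locus of CG9463 and CG9465, and -5.02 for CG15533. It was -3.60 for Mal-A3, -1.79 for nimB1, -1.42 for nimB4, 3.71 for Pbprp3, whose control response was near 0 (-0.02), and 2.68 for TotC. Each rests on 1 library per genotype and condition, and the difference was not tested. Outside the named loci, 5 loci without a gene name were under 0.5 FPKM in every control library and over 3 FPKM in every Syn1 library. Of these, a locus on 3R was at 12.1, 13.9 and 12 FPKM in Syn1 and at 5.73, 6.97 and 4.43 in Nos, and a locus on 3L was at 3.05, 7.45 and 3.21 in Syn1 and under 0.25 in every other library. Of 3336 unnamed loci with status OK, 72 were at least 2-fold higher in Syn1 and 108 lower.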

How the results depend on the processing

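A pseudocount of 0.1 raised the number of loci called by fold from 401 to 1270 (617 higher, 653 lower), those of limma from 189 to 554, those of the contrast with the other mutants from 112 to 453, the loci called in opposite directions in different conditions from 67 to 277, and the metabolic responses apart from the other genotypes from 44 to 113 below and from 17 to 172 above. It took the ratio of Syn1, which is listed at 0 in the mutant, from -2.92 to -6.06 and the lysozyme median from 0.72 to 1.10. Asking for 2-fold in each condition left 168 loci (74 higher, 94 lower), and summing FPKM over the loci of a name left 264 genes (116 higher, 148 lower). With Benjamini-Hochberg adjustment 60 and 26 loci outside the window passed in place of 189 and 112. Without the Nos libraries the contrast counted 213 loci. Leaving out each condition gave 447 to 505 loci by fold, with 185 to 247 higher and 230 to 320 lower, 174 to 226 by limma and 110 to 147 for the contrast. The Syn1 ratio then ran from -2.97 to -2.82, and list medians from -0.19 to -0.06 for odorant binding, from -0.86 to -0.48 for the accessory gland, from 0.47 to 0.67 for phototransduction, from 0.12 to 1.28 for antimicrobial peptides, from 0.66 to 0.86 for lysozymes, from -0.83 to 0.56 for amylase and maltase and from 0.06 to 0.24 for the extracellular matrix. A minimum mean FPKM of 1, median-ratio scaling, 1 locus per name, all statuses, other windows, a fit to the 6 libraries, no stress term and another prior kept each of these counts within 1.5 times. All 77 named ratios moved by less than their SD under scaling, and 42 moved further with the smaller pseudocount. Leaving out a condition cannot move a mean of 3 by its SD, so it says nothing of the stability of single ratios. No ratio that was called reversed. Causes were not tested. Libraries were paired by condition throughout, and without the stress term limma called 162 loci.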
